A study of Hernandia nymphaeifolia with 9 samples.

Results

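Among the leaf genes of salt-treated Hernandia nymphaeifolia seedlings, 99 of the 315331 assembled genes were low after 7 days of 300 mM NaCl and back near the fresh water level after 14 days. The members were chosen by their measured values in all 9 libraries, as CPM (each gene's count divided by the library total and multiplied by 1000000). A gene was kept if its control mean was under 500 CPM, if each of the 3 control and 3 14 d libraries held at least 5 CPM and at least 2 times the highest 7 d library, and if the 14 d mean lay within 1.3-fold of the control mean. The fall at 7 d and the return at 14 d are therefore the definition of the group and not findings, and all values below from these contrasts are descriptions without a test. A gene here is a gene of the transcriptome assembly, the sum of its assembled isoforms, and the files do not pair its identifier with a name or a function. No function is given to any member for that reason, and the labelled tissue could not be checked against marker genes.

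Hernandia nymphaeifolia is a tree of tropical shores that grows beside mangroves, and the study asked how its seedlings adjust to salt. Seedlings 2 years old were flooded to branch height for 3 h in every 12 h. The control group stood in fresh water, and the salt groups were flooded with 300 mM NaCl and sampled at 7 d or 14 d, with 3 plants and 3 polyadenylated RNA libraries per group. All plants, controls included, were flooded in this rhythm. One control group of unstated sampling day served both salt times, so duration of salt and time in the experiment cannot be told apart.

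Leaves that meet salt water first face a loss of water potential and later a build-up of ions. Transcript levels of many plant genes shift within this first adjustment, and part of them return once growth and water balance settle, while others stay changed. Transient lowering of a transcript can follow from slower transcription or faster decay. In bulk leaf RNA, fewer cells of a type and less RNA per cell cannot be told apart either.

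Library totals ran from 13166552 to 14201943 counts. Replicates within each group differed by more than counting noise, with a chi-square per degree of freedom of 10.3 to 44.5. Among the 14 d libraries, replicate 3 lay lowest in 56 of the 99 members and highest in 11. Among the 16293 genes at matching levels in control and at 14 d, it was lowest in 41.5% and highest in 38.5%.

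Together the members made up 0.454, 0.400 and 0.442% of all counts in control replicates 1, 2 and 3. At 7 d this share was 0.102, 0.119 and 0.105%, and at 14 d it was 0.380, 0.479 and 0.388%. The group means were 0.432 ± 0.0285% (SD, n = 3) in control, 0.109 ± 0.00886% (SD, n = 3) at 7 d and 0.415 ± 0.0549% (SD, n = 3) at 14 d. The 14 d libraries lay on both sides of the control libraries, and no 7 d library came near either group. The members' control means ran from 6.97 to 322 CPM with a median of 23.2 CPM. For comparison, the 16293 genes that could have met the level criteria (control mean under 500 CPM and at least 5 CPM in each control and 14 d library, called eligible genes below) had a median of 24.8 CPM. The members were thus of ordinary abundance among eligible genes: 12 had a control mean under 10 CPM, 61 had 10 to under 50 CPM and 26 had 50 CPM or more.

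**Figure D1:**
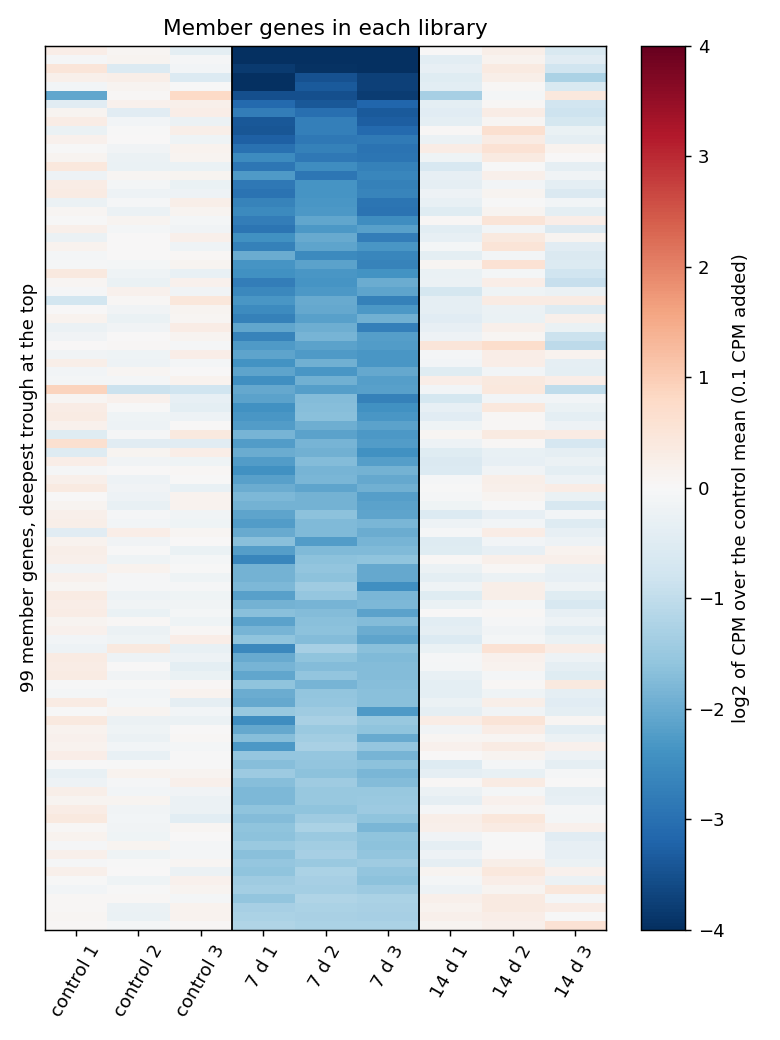
Each row is 1 of the 99 members and each column a library; colour is log2 of the CPM over the member's control mean, after adding 0.1 CPM, and values below -4 take the darkest blue. Rows run from the deepest trough (top) to the shallowest, and the 7 d columns are blue throughout while the 14 d columns are pale, with 14 d replicate 2 reddest and 14 d replicate 3 bluest of the 3.

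The trough at 7 d differed in depth between members. The control mean was 2.37 to 150 times the 7 d mean, with a median of 4.05-fold and quartiles of 3.33 and 5.27. In other words, the median member kept 24.7% of its control level at 7 d. Of the 99 members, 87 were at least 3-fold lower by this ratio of means, 51 at least 4-fold, 29 at least 5-fold and 10 at least 8-fold. The median control level was 23.0 CPM in the 10 deepest members and 29.4 CPM in the 48 members with a trough under 4-fold.

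**Figure D2:**
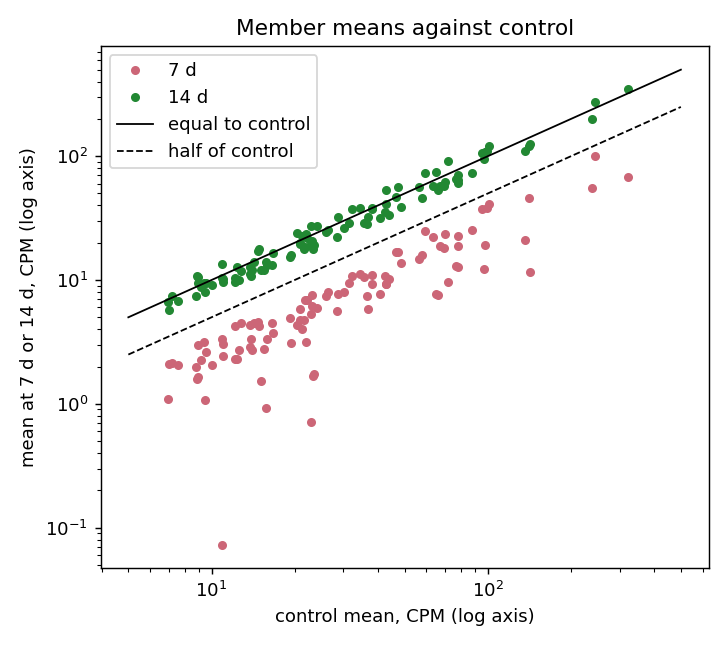
Each member is plotted by its control mean in CPM (horizontal log axis) against its 7 d mean (red) and 14 d mean (green) in CPM (vertical log axis); the solid line marks equality with control and the dashed line 0.5 of it. The green points follow the solid line, and the red points scatter widely below the dashed line, down to 0.0731 CPM.

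The member with the highest control mean was TRINITY_DN34346_c0_g1. It held 294, 286 and 386 CPM in control replicates 1 to 3, then 74.3, 67.1 and 63.5 CPM at 7 d, and 308, 390 and 352 CPM at 14 d. All 7 d libraries were far below the other 6, and the 14 d libraries spanned nearly the same range as the control libraries. Its fitted log2 difference from control was -2.26 ± 0.15 (SE) at 7 d and 0.05 ± 0.14 (SE) at 14 d.

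TRINITY_DN144788_c0_g2, the second by control mean and assembled as 1 isoform, had a shallow trough with very even 7 d libraries. Its control libraries held 258, 204 and 272 CPM, its 7 d libraries 101, 99.8 and 97.7 CPM, and its 14 d libraries 280, 297 and 239 CPM. Its log2 difference from control was -1.32 ± 0.14 (SE) at 7 d and 0.08 ± 0.14 (SE) at 14 d. With its lowest control library at 2.01 times its highest 7 d library, it also stood next to the threshold of the rule.

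Among the remaining members, TRINITY_DN6751_c0_g2 had the highest ratio of 14 d to 7 d and was all but undetected at 7 d. Its control libraries held 13.0, 11.5 and 8.31 CPM, its 7 d libraries 0, 0.143 and 0.0760 CPM, and its 14 d libraries 11.01, 12.9 and 7.21 CPM. The 7 d values come from 3 counts in the 3 libraries together, against 461 in control and 422 at 14 d. The ratio of control to 7 d was 149 with an exact 95% counting interval of 50.7 to 726, and that of 14 d to 7 d was 141 with an interval of 48.1 to 689. These intervals cover counting error only. In 7 d replicate 1, which had no count, 3 counts would have been worth 0.217 CPM, so the gene is not shown to be absent there.

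TRINITY_DN23988_c0_g3 came next and had even levels within control. It held 21.9, 24.6 and 22.0 CPM in control, 0.724, 0.716 and 0.684 CPM at 7 d, and 17.0, 25.05 and 16.5 CPM at 14 d. The 7 d values come from 10, 10 and 9 counts, too few to show how even the gene was there. The ratio of control to 7 d was 32.2 with an exact 95% counting interval of 22.3 to 48.4. That of 14 d to 7 d was 27.5 with an interval of 19.0 to 41.4. Its log2 difference from 7 d to 14 d was 4.71 ± 0.23 (SE). At 14 d, replicate 2 was above all control libraries and replicates 1 and 3 were below them.

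**Figure D3:**
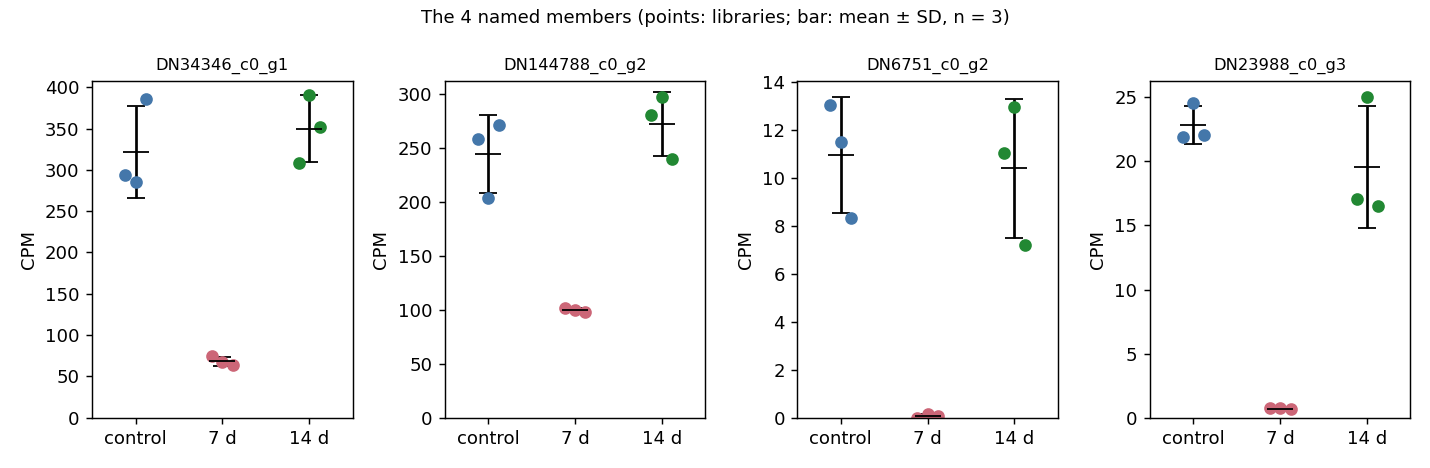
CPM of the 4 members named by identifier, with 1 point per library and the mean ± SD of each group (n = 3); each panel has its own vertical axis from 0. In each panel the 7 d points lie below the control and 14 d points, which overlap. The gap is narrowest for TRINITY_DN144788_c0_g2, where the lowest control point is 2.01 times the highest 7 d point.

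Other members with high control levels differed in how even their libraries were. The third by control mean held 369 CPM in control replicate 1 but 173 and 174 CPM in replicates 2 and 3, with 50.9, 65.7 and 50.5 CPM at 7 d and 206, 245 and 149 CPM at 14 d. The fourth was the least even of the abundant members, with 33.8, 146 and 247 CPM in control, 12.4, 12.4 and 10.03 CPM at 7 d, and 56.2, 134 and 189 CPM at 14 d. Its seedlings differed severalfold within the control and the 14 d group, while its 7 d libraries were almost equal. Its mean difference of 12.2-fold at 7 d therefore rests on uneven controls, and its lowest control library was 2.73 times its highest 7 d library. The fifth, sixth and seventh by control mean were at 140, 136 and 101 CPM in control, 46.2, 21.2 and 41.0 CPM at 7 d, and 121, 110 and 121 CPM at 14 d.

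The thresholds of the rule cut through a continuous range. By the ratio of the lowest control or 14 d library to the highest 7 d library, the members just inside stood at 2.0003 and 2.013 and the genes just outside at 1.998 and 1.995. On the low side of the band around the control mean, the members just inside had a ratio of 14 d to control of 0.7695 and 0.7696, and the genes just outside 0.7689 and 0.7685. On its high side the members just inside were at 1.28 and 1.24 and the genes just outside at 1.316 and 1.320. The lowest library of the members nearest the 5 CPM floor held 5.32 CPM, in each of 2 members, and the genes just under it were at 4.99 and 4.93 CPM. Above the limit of 500 CPM lay 2 genes that met all other criteria, with control means of 701 and 1298 CPM, 7 d means of 196 and 405 CPM, and 14 d means of 601 and 1133 CPM.

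The members are part of a larger set of genes lowered at 7 d. Of the 17616 genes with a control mean under 500 CPM and at least 5 CPM in each control library, 926 had every control library at least 2 times the highest 7 d library. At 14 d, 384 of these 926 (41.5%) were still under 0.5 of the control mean, and 352 (38.0%) were between 0.5 of it and the lower edge of the 1.3-fold band. A further 171 (18.5%) were within 1.3-fold of the control mean and 19 (2.05%) above 1.3 times that mean. The 99 members come from the 171, and the other 72 had a 14 d library under 5 CPM or under 2 times the highest 7 d library. The rule turned round, with 7 d above control and 14 d, found 16 of 17920 genes at the matching levels. With libraries scaled by TMM (trimmed mean of M values, a scaling that allows for differences in composition) the counts were 82 lower and 23 higher, and with DESeq2 size factors 75 and 23.

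All 99 members passed the filter on low counts and were called lower at 7 d than control by edgeR's quasi-likelihood test, where 13.9% of the 62564 tested genes were called lower. All 99 were also called higher at 14 d than at 7 d, against 6.89% of tested genes. Both contrasts are part of the rule, so nothing is read from these counts. The median log2 difference of the members was -2.04 at 7 d against control and 1.83 at 14 d against 7 d, where the medians over all tested genes were -0.02 and 0.01. At 14 d against control 0 members were called by edgeR in either direction, where 16.4% of tested genes were called; the rule's 1.3-fold band bears on this count as well. An unadjusted p under 0.05 was reached by 14 of the 99 there, where 29.2% of tested genes reached it. The limma-voom fit called 1 member where 15.2% of tested genes were called, and DESeq2 called 0 where 14.1% were.

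Within the band more members lay under than over control at 14 d. The ratio of the 14 d to the control mean ran from 0.770 to 1.28 with a median of 0.910, and 71 members were below 1 and 28 above it. With TMM scaling the median was 0.864 and 74 members were below 1, where the median over eligible genes was 0.970 and 55.0% of them were below 1. The size of this shift rested on single libraries. The members' median fitted log2 difference was -0.21 with all libraries, -0.11 without 14 d replicate 3, -0.11 without control replicate 1 and -0.33 without 14 d replicate 2. With total counts as the only scaling it was -0.13. In 84 members the control and 14 d libraries overlapped. In 10 members all 14 d libraries were below all control libraries, with ratios of 0.770 to 0.814, where 18.6% of eligible genes had this order. In 5 members all 14 d libraries were above all control libraries, with ratios of 1.16 to 1.28, where 21.5% of eligible genes did. Eligible genes were held neither to the 1.3-fold band nor to the fall at 7 d, so they are a background and not a matched comparison. How far the choice of members made the excess below control was not tested. The member highest within the band held 71.0, 65.3 and 78.7 CPM in control, 8.90, 10.8 and 9.11 CPM at 7 d, and 88.5, 108 and 79.1 CPM at 14 d. The member lowest within it held 30.9, 47.7 and 52.9 CPM in control, 11.004, 11.6 and 8.13 CPM at 7 d, and 31.5, 35.7 and 34.0 CPM at 14 d.

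The 3 seedlings of the 14 d group were not equally far back. The position of each 14 d library was expressed as a percent of the log2 distance from the member's 7 d mean (0%) to its control mean (100%). Its median over the members was 88.7% in replicate 1, 106% in replicate 2 and 85.8% in replicate 3. In replicate 2, 66 members were past their control mean and none was under 75%, while in replicates 1 and 3 22 and 23 members were past it and 10 and 16 were under 75%. The lowest single value, 52.4%, and the highest, 146%, were both in replicate 3. The ratio of the 14 d to the control mean had a median of 0.848 in the 10 members with a trough of 8-fold or more and 0.939 in the 48 with a trough under 4-fold. The control mean enters both this ratio and the depth of the trough, so nothing is read from the difference. The median positions in the deep and the shallow class were 88.3 and 88.5% in replicate 1. They were 103 and 106% in replicate 2, and 81.9 and 85.6% in replicate 3.

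**Figure D4:**
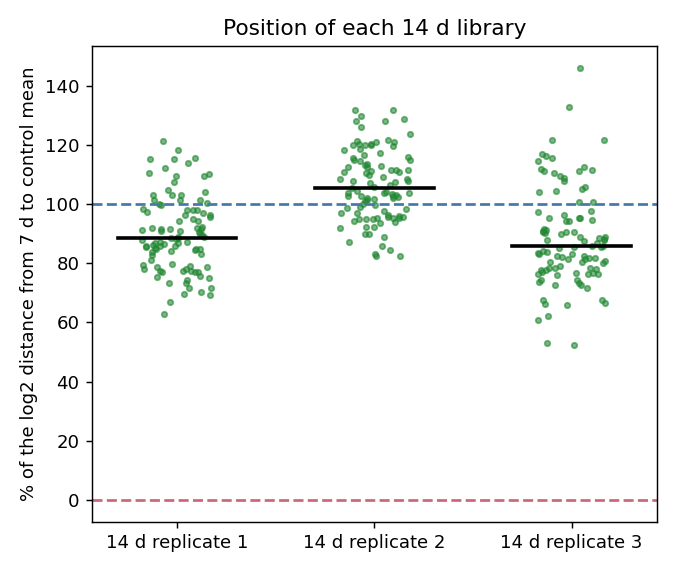
Position of each 14 d library for each of the 99 members (points), in percent of the log2 distance from the 7 d mean (red dashed line, 0%) to the control mean (blue dashed line, 100%); the black bars are medians. The points of replicate 2 centre just above the control line at 106%, those of replicates 1 and 3 below it at 88.7 and 85.8%.

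Many members also shared an order of the libraries within groups. Replicate 2 was the highest of the 3 14 d libraries in 87 of the 99 members (87.9%) and the lowest in none, where it was highest in 38.8% of eligible genes. At 7 d, replicate 2 was highest in 65 members (65.7%), where it was highest in 38.1% of eligible genes. In control, replicate 1 was highest in 52 members (52.5%), where it was highest in 26.6% of eligible genes. TMM scaling gave 87, 60 and 57 members for these 3 libraries. The median member lay 0.21 above its 14 d group mean in replicate 2 on the log2 scale, and 0.10 and 0.15 below it in replicates 1 and 3 (-0.10 and -0.15). The 11 members that were highest in 14 d replicate 3 were highest in control replicate 1 in 6 cases, in replicate 2 in 2 and in replicate 3 in 3. The order of the 14 d libraries was thus shared by most members but not by all. The members were chosen by these same libraries, so the eligible genes are a background and not a matched comparison. Without 14 d replicate 2, 75 genes met the rule, and 67 of the 99 members were among them. How far the choice of members made this order was not tested.

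The median coefficient of variation among the 3 libraries was 14.6% in control, 16.4% at 7 d and 17.1% at 14 d for the members, and 11.9, 10.1 and 10.3% for eligible genes. Counting alone would give the members medians of 5.54, 11.1 and 5.61%, so the low counts at 7 d bear on the value there more than elsewhere. A coefficient above 30% was found for 5 members (5.05%) in control, where 5.38% of eligible genes exceeded it. It was found for 9 members (9.09%) at 7 d and 13 (13.1%) at 14 d, against 2.498 and 6.33% of eligible genes.

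Because the rule used every library, it was also applied to 8 libraries at a time, and the library set aside was then read for the genes so chosen. Without 7 d replicate 1, 106 genes met the rule, and that library held no more than 0.5 of their lowest control or 14 d level in 99 of them (93.4%), where 2.75% of eligible genes did. Without 7 d replicate 2 this was 99 of 142 (69.7%) against 1.44%, and without 7 d replicate 3 it was 99 of 103 (96.1%) against 2.23%. The 99 genes in each case are the members themselves, by construction of the rule. In every gene so chosen the 7 d library left out lay below all control and 14 d libraries, where it did so in 19.6 to 28.1% of eligible genes. The control and 14 d libraries compared here were still those chosen as high, so the eligible genes are a background and not a matched comparison, and nothing further is read from these shares. The share was lowest for replicate 2.

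The same reading was made for the return at 14 d. The 14 d library left out held at least 2 times the highest 7 d level in 108 of 127 genes for replicate 1 (85.0%), where 2.97% of eligible genes did. For replicate 2 this was 74 of 75 (98.7%) against 4.35%, and for replicate 3 it was 106 of 148 (71.6%) against 2.77%. Replicate 3 also gave 3 genes in which the library left out was not above the highest 7 d library. In the clearest of these it held 2.11 CPM, where the control mean was 58.8 CPM, the 7 d mean 14.0 CPM and the mean of the other 14 d libraries 47.8 CPM. In that seedling the gene was thus lower than in any 7 d seedling. The control libraries left out were at least 2 times the highest 7 d level in 102 of 111, 93 of 97 and 94 of 102 genes for replicates 1, 2 and 3, against 6.34, 5.27 and 5.78% of eligible genes. In 1 gene control replicate 1 held 2.21 CPM, below its 7 d mean of 4.52 CPM, where the other control libraries had a mean of 15.2 CPM. The 7 d libraries used for the shares in this reading had been chosen as low, and those of eligible genes had not. The eligible genes are thus no matched comparison here either, and nothing further is read from these shares.

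The rule used the sum of a gene's isoforms, so it fixed the course of an isoform that makes up most of its gene. The assembly gave the members 287 isoforms, of which 209 had a mean of at least 1 CPM over the 9 libraries. By this count 43 members had 1 isoform, 23 had 2 and 33 had 3 to 5. Isoforms of a gene share sequence, and how shared reads are divided between them was estimated, so values of single isoforms are less certain than those of genes. In 179 of the 209 all 7 d libraries were below all control and 14 d libraries, where 9.61% of all isoforms at this level were. These 179 hold the 43 isoforms of members with 1, and 55 of the 56 leading isoforms of the rest, for which the rule largely fixed the order. Of the 110 other isoforms, 81 (73.6%) had that order, where 8.77% of such isoforms of eligible genes did; they too are part of the sum that was used. In 0 of the 209 all 7 d libraries were above all the others, where 6.9% of all isoforms were. In 34 of the 56 members with 2 or more isoforms every isoform had its 7 d libraries below all the rest. The rule on the sum bears on this count as well, and no background was taken for it.

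The make-up of isoforms shifted in part of the members. The leading isoform, that with the highest control mean, took a median share of 65.9% in control. Shares are taken over the isoforms with a mean of at least 1 CPM. The 7 d and control libraries did not overlap in this share in 30 of the 56 members (53.6%), where 35.3% of eligible genes with 2 or more isoforms showed no overlap. The share was lower at 7 d in 18 of the 30 and higher in 12. The median size of the change was 8.34 percentage points, against 4.65 in eligible genes, and 23 members (41.1%) changed by 10 points or more, where 22.3% of eligible genes did. Lower counts at 7 d make a share less precise in the members than in eligible genes, and the part of this in the difference was not tested. The leading isoform itself differed between control and 7 d in 14 of the 56 members (25%), where it did in 13.9% of eligible genes. It differed between control and 14 d in 5 members (8.93%), where it did in 12.4% of eligible genes. One of the 14 is TRINITY_DN6751_c0_g2, whose 7 d shares rest on 3 counts. With the stricter demand of the same leading isoform in all 3 libraries of each group, 5 of the 14 were counted (8.93% of 56), where 3.82% of eligible genes were. With isoforms of at least 5 CPM, 5 of 28 members were counted (17.9%), where 16.4% of eligible genes were.

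The largest shift of share was in the member ranked 59 by control mean. In control its leading isoform held 20.4, 20.1 and 23.0 CPM and its second isoform had no count. At 7 d the leading isoform had no count, and the second held 4.05, 4.73 and 3.27 CPM. At 14 d the leading isoform was alone in replicates 1 and 2, with 22.2 and 31.3 CPM, while in replicate 3 it held 4.59 CPM and the second isoform 9.76 CPM. The second isoform thus appeared in all 7 d seedlings and in 14 d replicate 3, and in neither of the other 14 d seedlings. A like but partial change was found in the member ranked 77, whose leading isoform fell from 82.4 ± 3.23% (SD, n = 3) in control to 34.5 ± 16.7% (SD, n = 3) at 7 d and stood at 78.7 ± 5.43% (SD, n = 3) at 14 d. In that member the second isoform was at 2.09 CPM in control and 1.57 CPM at 7 d, whereas the leading one went from 9.80 to 0.823 CPM. Its 6 assembled isoforms include others below 1 CPM on average, and of the whole gene the leading isoform took 71.2 ± 3.83% (SD, n = 3) in control, 18.7 ± 8.02% (SD, n = 3) at 7 d and 65.4 ± 6.20% (SD, n = 3) at 14 d.

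In other members the share did not return with the level. The member ranked 61 held 65.6 ± 3.40% (SD, n = 3) of its sum in the leading isoform in control, 34.4 ± 7.78% (SD, n = 3) at 7 d and 35.2 ± 1.36% (SD, n = 3) at 14 d. Its total was 20.9 CPM in control and 19.8 CPM at 14 d, so nearly the same sum was made up of its 2 isoforms in different proportions. In TRINITY_DN34346_c0_g1 the leading isoform took 84.4, 84.5 and 84.5% in control, 93.5, 91.8 and 95.7% at 7 d, and 77.7, 75.3 and 78.7% at 14 d. These 3 ranges do not overlap, and the share at 14 d lay on the far side of control from that at 7 d. The rule required the gene sums to be lower at 7 d, which limits how many isoforms could rise, and no background was taken for such rises. Of the 209 isoforms, 4 had a higher mean at 7 d than in control, each in a different member. The most abundant of them held 8.13, 5.39 and 5.70 CPM in control, 9.70, 8.45 and 6.15 CPM at 7 d, and 10.9, 16.3 and 3.35 CPM at 14 d, and these groups overlapped.

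**Figure D5:**
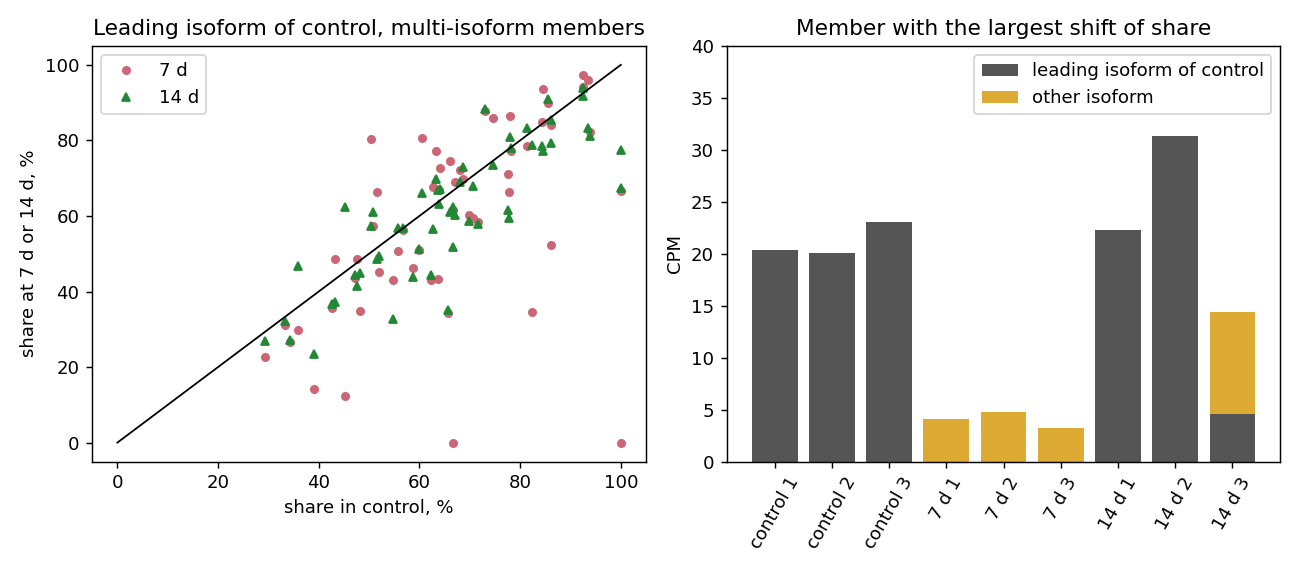
Left, the mean share of the leading control isoform in control (horizontal axis, %) against 7 d (circles) and 14 d (triangles) in the 56 members with 2 or more isoforms, with the line of equality. Right, CPM of both isoforms of the member ranked 59 in each library, stacked: the leading isoform is absent from the 7 d bars, and both isoforms are present in 14 d replicate 3.

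Some members were neighbours in the assembly. Genes were grouped here by the DN number of the identifier alone, and such a group is called a cluster. A cluster can hold different components of the assembly (the c number), and genes of different components need not share reads. Genes of the same component can share sequence and reads, so they are not independent. The 99 members came from 95 clusters, of which 4 held a pair of members. Both genes of each pair had the same c number. In the pair with the deepest trough, 1 gene held 81.0, 61.0 and 56.3 CPM in control, 6.23, 9.88 and 6.68 CPM at 7 d, and 50.1, 70.0 and 40.7 CPM at 14 d. Its partner held 52.9, 35.8 and 33.3 CPM in control, 7.46, 7.95 and 7.75 CPM at 7 d, and 33.7, 38.7 and 23.4 CPM at 14 d. Both were highest in control replicate 1 and in 14 d replicate 2, as were 45 of the 99 members. The members' clusters held 106 other genes with a control mean of 5 CPM or more, some of them in a different component from the member. In 26 of these (24.5%) all 7 d libraries were below all control and 14 d libraries, where 14.4% of all 19710 genes at this level had that order. The median ratio of control to 7 d of these 106 genes was 1.104, so most of them did not share the depth of the members' trough, and 22 were at least 2-fold lower by the ratio of means.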

How the data were processed

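The authors deposited estimated counts per assembled transcript, unscaled, as whole numbers. Per the submitters' processing notes the tools included FastQC, HISAT2 and Salmon, with neither roles nor versions. Row names follow the pattern of Trinity output, with the assembly settings not given in the sources. The 416949 transcripts were summed to 315331 genes by the identifier before its isoform number. CPM used column totals. The test was edgeR 4.0.16 (quasi-likelihood, 1 model for 9 libraries, TMM, minimum count 10, minimum total 15, Benjamini-Hochberg over all 62564 tested genes, calls under 0.05) in R 4.3.3, checked on simulated data. Other runs used limma-voom (limma 3.58.1), DESeq2 1.42.0, a replicate block, different scaling and filters, fits of 2 groups and each library left out. Exact counting intervals used SciPy 1.17.1.

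The members, lists and rules were chosen with earlier results of these data known. The identifiers printed are the 2 members with the highest control mean and, of the rest, the 2 with the highest ratio of 14 d to 7 d means; other members are given by rank or role. Gene lists and marker lists were not tested, since no names came with the identifiers. Fold changes on the log2 scale are fitted values, and their SE is the size of the fitted value over the square root of the quasi-likelihood F.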

Additional observations from a re-analysis of the deposited data

How the results depend on the processing

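The number of genes that met the rule depended on its thresholds. It was 278 with 1.5 times the highest 7 d library in place of 2 times, 29 with 3 times, and 65 with a band of 1.2-fold at 14 d. It stayed within 1.5 times of 99 under other scaling, other floors, a band of 1.5-fold, no upper limit and single transcripts, and between 75 (without 14 d replicate 2) and 148 (without 14 d replicate 3) with each library left out. Of the 99, 74 met the rule with TMM and 67 without 14 d replicate 2. Calls at 7 d and between the salt times covered at least 98 of 99 members in each alternative run, which the choice of members largely fixes. At 14 d against control, 1 member was called by limma-voom, and 0 to 1 with each library left out. The leading isoform differed between control and 7 d in 5 of 28 members with isoforms of at least 5 CPM, in 5 of 56 with the same leading isoform demanded in all libraries of a group, and in 12 to 15 with each library left out. The replicate block left the member calls at 99, 99 and 0. The deviations of same-numbered libraries from their group means had correlations of -0.212 to 0.360 between groups, and libraries matched best with their own number in 8 of 18 cases. Deviations from means of 3 libraries cannot decide whether the numbers pair the samples. The scaling of the mirrored rule, of the 14 d direction and of the library order was chosen after seeing the data. With 3 seedlings per group the spread between plants, more than depth, limits precision in control and at 14 d. At 7 d the members' median coefficient of variation was 16.4%, and counting alone would give 11.1%. Depth thus bears on more than the lowest members there.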
